A study of Mus musculus with 4 samples.

Results

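The genes described here encode the proteins of the mitochondrial ribosome. They were taken as the probe sets whose annotated gene symbol is Mrpl or Mrps followed by a number and at most 1 letter, with the brightest probe set by mean log2 signal standing for each gene. The rule gave 76 genes, 47 named for the large subunit and 29 for the small subunit, of 18193 genes that had a probe set of their own. All 76 lay above a filter at the median signal of all probe sets (55.9), as did 11057 genes in all, and all 76 also lay above the 75th percentile of signal (420). A difference is counted as past the threshold from 25% higher or 20% lower, which is 0.32 in log2 either way. Members are set below against both the 11057 genes entered and the 6936 of them above that percentile. Neither set was matched to the members in signal.

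RNA came from mDCT, mouse cells immortalised from the distal convoluted tubule, a kidney segment that reabsorbs sodium chloride. Every array came from cells transfected with human mineralocorticoid receptor (MR) carrying a FLAG tag, so none shows the line without it. At 48 h after transfection the cells were given 5 µM of the MR antagonist spironolactone or its ethanol vehicle, and 2 h later the MR agonist aldosterone or ethanol, which acted for 3 h. The first treatment was ethanol throughout, and the others were aldosterone at 1 nM, at 100 nM, and at 100 nM after spironolactone, which is called the spironolactone array. Spironolactone alone was not among them. Each treatment had 1 array. A difference is therefore between 2 arrays, cannot be weighed against replicate error and carries no p-value, and 1 array per treatment limits the precision.

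The array signals were MAS5 probe set intensities with the same trimmed mean, 500.0, in each array, and their medians lay between 58.9 and 61.7. Sgk1, a kinase gene known to be induced by corticosteroids, had signals of 801, 935, 1810 and 1424 in ethanol, 1 nM, 100 nM and spironolactone. Of 13 distal convoluted tubule markers 10 had a probe set of their own and 6 passed the filter. The defining sodium chloride cotransporter gene, Slc12a3, did not, with signals of 3.93, 17.2, 12.1 and 4.35 in the same order. No marker of collecting duct, intercalated cells, fibroblasts or leukocytes passed the filter (0 of 5, 0 of 3, 0 of 4 and 0 of 4 on the array). Of the endothelial markers 1 of 4 passed it, and of the proximal tubule markers 5 of 6, among them Aqp1 and Lrp2.

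The mitochondrial ribosome translates the few messages encoded by mitochondrial DNA, all of them for subunits of the respiratory chain and ATP synthase. Its proteins are encoded in the nucleus, made in the cytosol and imported, and they assemble on ribosomal RNAs made inside the organelle. Some have counterparts in the bacterial ribosome and others are found only in mitochondria. In tubule cells, whose sodium pumping depends on oxidative ATP production, the respiratory chain these ribosomes supply is a main source of energy. Their promoters are known for binding sites of NRF1, of the ETS factor GABP and of YY1, factors that tie nuclear genes to mitochondrial biogenesis.

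The promoter windows below are shown because Mrpl33 and Mrpl37 were the members past the threshold in a comparison, and Mrps23, Mrpl42 and Mrps12 had the narrowest ranges over the 4 arrays. Each window runs from 250 bases before to 50 after the annotated gene start, 5′ to 3′ along the gene, from RefSeq on GRCm38.p6. They are chr5:31613701-31614000, plus strand, for Mrpl33, chr4:107066817-107067116, minus strand, for Mrpl37, chr11:88204138-88204437, plus strand, for Mrps23, chr10:95501900-95502199, minus strand, for Mrpl42, and chr7:28741772-28742071, minus strand, for Mrps12. Capitals mark matches on either strand to the NRF1 core GCGCATGC, the ETS core CCGGAAG or the YY1 motif AAGATGGC.
Mrpl33: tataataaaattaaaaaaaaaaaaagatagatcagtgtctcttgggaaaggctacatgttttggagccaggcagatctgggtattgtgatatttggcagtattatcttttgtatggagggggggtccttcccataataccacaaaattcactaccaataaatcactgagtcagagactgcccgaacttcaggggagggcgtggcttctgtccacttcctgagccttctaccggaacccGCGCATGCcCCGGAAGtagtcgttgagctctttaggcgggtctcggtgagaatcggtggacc
Mrpl37: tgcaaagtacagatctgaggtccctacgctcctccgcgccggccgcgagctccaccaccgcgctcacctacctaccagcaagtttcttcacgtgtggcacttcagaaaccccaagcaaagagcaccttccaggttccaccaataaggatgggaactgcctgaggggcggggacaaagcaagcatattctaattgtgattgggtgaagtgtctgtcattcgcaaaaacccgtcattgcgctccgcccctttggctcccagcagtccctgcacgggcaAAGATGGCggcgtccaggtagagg
Mrps23: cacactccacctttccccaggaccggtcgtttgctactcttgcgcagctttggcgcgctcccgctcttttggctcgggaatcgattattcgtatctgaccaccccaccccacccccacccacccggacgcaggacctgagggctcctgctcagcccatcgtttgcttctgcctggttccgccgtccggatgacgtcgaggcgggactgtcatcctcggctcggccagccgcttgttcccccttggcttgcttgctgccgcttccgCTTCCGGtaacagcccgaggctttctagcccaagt
Mrpl42: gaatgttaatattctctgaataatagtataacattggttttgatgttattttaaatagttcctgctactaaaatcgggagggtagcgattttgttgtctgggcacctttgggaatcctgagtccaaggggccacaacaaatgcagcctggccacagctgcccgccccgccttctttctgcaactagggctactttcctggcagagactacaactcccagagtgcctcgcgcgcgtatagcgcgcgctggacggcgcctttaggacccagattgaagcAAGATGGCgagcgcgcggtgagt
Mrps12: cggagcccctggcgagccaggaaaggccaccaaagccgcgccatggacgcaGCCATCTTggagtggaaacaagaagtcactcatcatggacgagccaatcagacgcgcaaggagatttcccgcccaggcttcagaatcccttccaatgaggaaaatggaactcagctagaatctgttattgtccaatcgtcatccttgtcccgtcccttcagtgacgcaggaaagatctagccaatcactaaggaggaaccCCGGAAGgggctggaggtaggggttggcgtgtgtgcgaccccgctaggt
The Mrpl33 window holds the NRF1 core from 12 to 5 bases before the annotated start, and an ETS core that begins 3 bases before it and ends 4 bases after it. The Mrpl37 and Mrpl42 windows hold the YY1 motif downstream of the start. Mrps23 has an ETS core on the opposite strand, and Mrps12 has an ETS core just after the start and a YY1 motif further upstream.

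Of the 76 genes 67 had a window in the RefSeq table. The ETS core was present in 25 of them (37.3%), against 9.93% of 27025 genes with a window. The YY1 motif was present in 12 (17.9%, against 3.19%) and the NRF1 core in 8 (11.9%, against 3.05%). A steroid receptor palindrome, GNACA and TGTNC with 3 bases between them, was found in 0 of the 67 and in 0.537% of all genes. Its core TGTTCT, which overlaps some forms of the palindrome, was found in 7 (10.4%), against 21.3% of all genes, and in none of the 5 windows shown. All motifs were searched on both strands. The 27025 genes are all those with a window, neither chosen by signal nor matched to the members in base composition. Whether the members differ in these motifs from other genes as bright was not tested. A match is a match of letters, and its absence says only that these letters are not in the window.

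As a group the mitochondrial ribosomal protein genes differed little between the 4 arrays. In RNA from whole cultures, fewer cells that express a gene and less RNA per cell cannot be told apart. For each gene the range is its highest minus its lowest log2 signal. The median range of the 76 genes was 0.10, which is 1.07-fold, against 0.16 for genes above the 75th percentile of signal and 0.22 for all genes entered. The range stayed under the threshold for 74 of the 76, which is 97.4%, against 87.7% of genes above the 75th percentile and 67.5% of all entered. For 53 members, which is 69.7%, it stayed under 1.1-fold, against 40.7% of genes above the 75th percentile and 27.4% of all entered. The median signal of the members lay between 3012 and 3205 in the 4 arrays, well above that percentile. Median range was smaller in the brighter comparison set, 0.16 against 0.22. No set matched to the members in signal was compared, so whether they were steadier than equally bright genes was not tested. The small subunit had a median range of 0.10 and no gene at or past the threshold (0 of 29). The large subunit had a median range of 0.11, with 2 of 47 genes, Mrpl33 and Mrpl37, past it.

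The steadiest member was Mrps23, a small subunit protein without a bacterial counterpart, with signals of 1861, 1839, 1863 and 1864 in ethanol, 1 nM, 100 nM and spironolactone. Mrpl42, on the large subunit, had 6461, 6481, 6519 and 6404. Mrps12, the counterpart of the bacterial protein at the decoding centre, had 2536, 2492, 2493 and 2551. Mrpl39, of the large subunit, had 6683, 6658, 6817 and 6637. The ranges of these 4 genes were 1.01-, 1.02-, 1.02- and 1.03-fold.

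**Figure D1:**
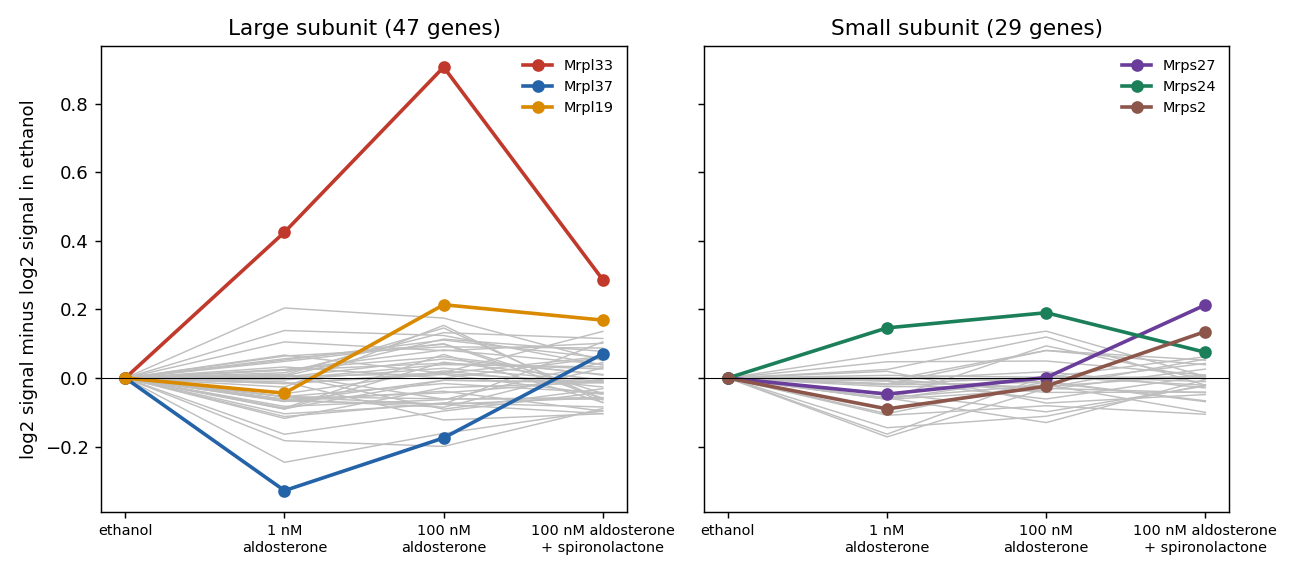
Log2 signal of each mitochondrial ribosomal protein gene minus its log2 signal in ethanol (vertical axis) in the 4 arrays (horizontal axis), large subunit on the left and small subunit on the right, with 1 line a gene. Mrpl33 reaches 0.91 with 100 nM aldosterone and 0.29 with spironolactone, while every other gene stays between -0.33 and 0.21.

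Mrpl33 was the exception. It encodes a small protein of the large subunit with a bacterial counterpart, and its promoter window holds the adjoining NRF1 and ETS cores given above. Its signals were 1750, 2350, 3280 and 2134 in ethanol, 1 nM, 100 nM and spironolactone. The 100 nM array was the highest, ethanol the lowest, and the other 2 lay between them. It was 1.87-fold higher with 100 nM aldosterone than in ethanol (a log2 difference of 0.91) and 1.34-fold higher with 1 nM than in ethanol (0.43). It was 1.40-fold higher with 100 nM than with 1 nM (0.48). With spironolactone it was 1.54-fold lower than with 100 nM aldosterone alone (-0.62) and stood 1.22-fold above ethanol (0.29).

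Among the 6936 genes above the 75th percentile of signal, the Mrpl33 difference between 100 nM aldosterone and ethanol ranked 6 from the top, and among all 11057 genes entered it ranked 102. Its difference between spironolactone and 100 nM aldosterone ranked 14 from the bottom of the brighter genes and 239 from the bottom of all entered. These comparisons share the 100 nM array, so the ranks are not separate evidence. The pattern of Mrpl33 was higher past the threshold with 1 nM than in ethanol, higher past the threshold again with 100 nM, and lower past the threshold with spironolactone than with 100 nM. It was held by 30 of the 11057 genes entered (0.271%) and by 1 of the 6936 above the 75th percentile, which was Mrpl33 itself. This pattern was written down after the values of Mrpl33 had been seen, and the counts are a description.

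For comparison, the corticosteroid-induced genes had the following differences from ethanol at 1 nM and at 100 nM. Sgk1 was higher by 0.22 and 1.18, and Per1, a circadian repressor, differed by -0.04 and 1.19. Tsc22d3, which encodes the leucine zipper protein GILZ, differed by -0.02 and 0.94, and Fkbp5, a steroid receptor co-chaperone, by 0.52 and 0.40. Against 100 nM aldosterone the spironolactone array differed by -0.35 for Sgk1, -0.59 for Per1, -0.46 for Tsc22d3 and -0.29 for Fkbp5. The Mrpl33 difference between spironolactone and 100 nM, -0.62, lay beside that of Per1, while at 1 nM its difference from ethanol lay beside that of Fkbp5. These pairings were picked after the values had been seen. Neither gene lay beside Mrpl33 in both comparisons, and none of the corticosteroid-induced genes given here held the Mrpl33 pattern described above.

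The Mrpl33 values rest on 1 probe set. A second probe set annotated to the gene had signals between 30.4 and 36.2, lowest in ethanol and highest with 1 nM aldosterone. All 4 lie under the filter, so it gives no check of the first. In RefSeq a long non-coding RNA gene, Gm38424, overlaps the span of Mrpl33 and has no probe set under its own name. The nearest other gene, Rbks, which encodes ribokinase, had signals of 116, 158, 137 and 126, with log2 differences of 0.24 for 100 nM and 0.44 for 1 nM against ethanol and -0.12 for spironolactone against 100 nM.

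Which members differ at the higher dose is read from the 100 nM array against the ethanol array. Of the 76 genes 1, Mrpl33, was higher past the threshold, where 7.07% of all genes entered and 1.74% of genes above the 75th percentile were. Lower past the threshold were 0, where the shares were 6.48% and 2.02%. At 1.5-fold the counts were 1 and 0, against 2.39% higher and 1.72% lower among all genes entered and 0.231% and 0.187% above the 75th percentile. Of the 76 differences 39 lay above 0, which is 51.3%, against 48.7% of all genes entered and 47.5% of those above the 75th percentile. The median difference was 0.01 for the large subunit and -0.01 for the small subunit, beside -0.01 for genes above the 75th percentile.

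After Mrpl33 the highest difference was that of Mrpl19, a large subunit protein with a bacterial counterpart, whose signal was 2046 with 100 nM against 1764 in ethanol (0.21). A second probe set of Mrpl19, nearly as bright, had 1708 against 1874 (-0.13), so the direction depends on the probe set. On the small subunit Mrps24, the counterpart of a bacterial protein at the entry of the messenger channel, had 2918 against 2557 (0.19), and its second probe set differed by -0.20. The lowest were Mrpl47, with 3227 against 3705 (-0.20), Mrpl37, with 1201 against 1356 (-0.17), and Mrpl14, with 1998 against 2234 (-0.16). None of these 5 passed the threshold.

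The lower dose was set against ethanol in the same way. Higher past the threshold was 1 gene, Mrpl33, where 7.9% of all genes entered and 2.1% of those above the 75th percentile were. Lower past the threshold was 1, Mrpl37, a large subunit protein without a bacterial counterpart, where 7% and 2.31% were. Mrpl37 had signals of 1080 with 1 nM and 1356 in ethanol, a difference of -0.33, and 1201 and 1424 with 100 nM and spironolactone. The 1 nM array was the lowest and spironolactone the highest. Its only probe set carries the suffix that marks matches to more than 1 transcript, and its 1.26-fold difference lay at the threshold.

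Mrpl14, which in human cells receives an assembly factor, MALSU1, that keeps the subunits apart, had 1884 with 1 nM against 2234 in ethanol (-0.25). Mrpl41, a large subunit protein without a bacterial counterpart, had 2247 against 1950 (0.20). On the small subunit Mrps18c had 4685 against 5277 (-0.17) and Mrps21 had 2883 against 3229 (-0.16). The medians were -0.02 for the large and -0.02 for the small subunit. Above 0 were 27 of the 76 differences, which is 35.5%, against 48.3% of all genes entered and 46.4% of those above the 75th percentile. In the same comparison 13.6% of cytosolic ribosomal protein genes and 44.7% of respiratory chain and ATP synthase genes lay above 0. At 1.5-fold the counts were 0 higher and 0 lower, against 2.61% and 2.07% of all genes entered and 0.317% each way above the 75th percentile.

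Between the doses, 100 nM minus 1 nM, Mrpl33 alone was higher past the threshold, 1 of 76 against 6.57% of all genes entered and 1.86% of those above the 75th percentile. Lower past the threshold were 0 of 76, against 6.6% and 1.85%. The medians were 0.04 for the large and 0.03 for the small subunit, and 55 of the 76 differences lay above 0, which is 72.4%, against 51.3% of all genes entered and 52% of those above the 75th percentile. At 1.5-fold 0 were higher and 0 lower, against 2.04% and 1.96% of all genes entered and 0.317% and 0.144% above the 75th percentile. Cytosolic ribosomal proteins had a median of 0.04 in the same comparison and respiratory chain and ATP synthase genes one of 0.04. This shift is far smaller than the threshold, and with 1 array a dose it cannot be told apart from a difference between those 2 arrays.

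**Figure D2:**
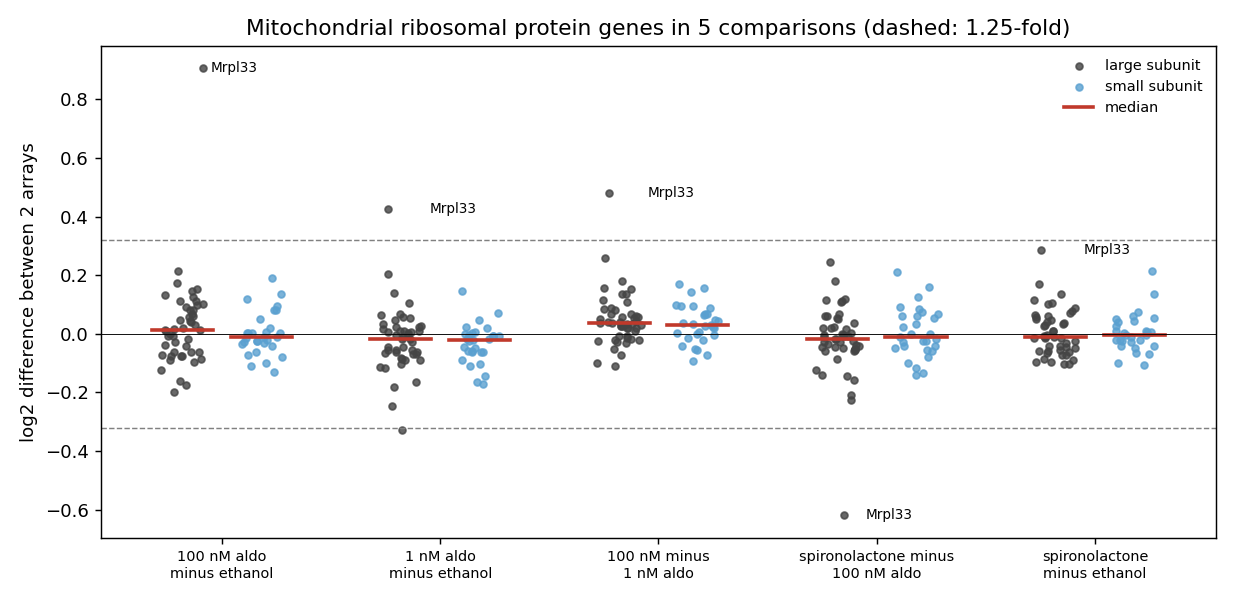
Log2 difference between 2 arrays (vertical axis) of each gene in the 5 comparisons (horizontal axis), large subunit in dark grey and small subunit in blue, with the median of each in red and the threshold dashed. Mrpl33 lies outside the dashed lines in 4 of the 5 comparisons, Mrpl37 in 1, and every other gene inside them in all 5.

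Whether the antagonist makes a difference at the same hormone dose is read from the spironolactone array against the 100 nM array. Lower past the threshold was 1 of 76, Mrpl33, where 8.13% of all genes entered and 2.05% of those above the 75th percentile were. Higher past the threshold were 0, where 6.49% and 2.38% were. At 1.5-fold Mrpl33 alone was lower, against 2.51% of all genes entered and 0.245% above the 75th percentile, and 0 were higher, against 1.83% and 0.216%. The median was -0.02 for the large and -0.01 for the small subunit, and 31 of the 76 differences lay above 0 (40.8%, against 49.3% of all genes entered and 51.5% above the 75th percentile). The highest differences after that were those of Mrpl37, with 1424 against 1201 (0.25), and of Mrps27, a pentatricopeptide repeat protein of the small subunit, with 697 against 602 (0.21). Mrps2, which has a bacterial counterpart, had 1986 against 1779 (0.16). The lowest after Mrpl33 were Mrpl55, with 850 against 994 (-0.23), and Mrpl49, with 2456 against 2841 (-0.21).

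Against ethanol the spironolactone array had 0 of 76 genes higher past the threshold, where 6.19% of all genes entered and 1.9% of those above the 75th percentile were. It had 0 lower past the threshold, where 7.42% and 1.86% were. At 1.5-fold both counts were 0, against 2.17% higher and 2.03% lower among all genes entered and 0.202% and 0.187% above the 75th percentile. Above 0 were 35 of the 76 (46.1%, against 48.2% of all genes entered and 49.1% above the 75th percentile). The highest differences were those of Mrpl33 (0.29), Mrps27 (0.21) and Mrpl19 (0.17). The lowest was -0.11, for Mrps36, whose product has also been described as a part of the 2-oxoglutarate dehydrogenase complex. No member set both arrays with aldosterone alone apart from the other 2 by the threshold, higher (0 of 76, against 1.07% of all genes entered and 0.13% above the 75th percentile) or lower (0 of 76, against 0.516% and 0.101%). The largest such gap was 0.14, for Mrpl33, on the higher side, and 0.17, for Mrpl37, on the lower. A single array lay past the threshold from each of the other 3 for 1 of the 76 genes, Mrpl33 in the 100 nM array, against 11.8% of all genes entered and 1.99% above the 75th percentile.

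A smaller threshold of 1.1-fold, chosen after the values had been seen, shows how the other members spread. Between 100 nM aldosterone and ethanol 6 were higher (Mrpl19, Mrpl33, Mrpl41, Mrpl49, Mrpl55 and Mrps24), against 19.3% of all genes entered and 11.8% above the 75th percentile. Lower were 3 (Mrpl14, Mrpl37 and Mrpl47), against 20.4% and 14.1%. Between 1 nM and ethanol 4 were higher, against 20.2% and 12.3%, and 7 lower, against 21.5% and 15.6%. Between the doses 8 were higher, against 19.7% and 12.8%, and 0 lower, against 20.1% and 13.1%. Between spironolactone and 100 nM 4 were higher (Mrpl37, Mrpl38, Mrps2 and Mrps27), against 19.7% and 14.7%, and 7 lower, against 21.8% and 13.3%. Between spironolactone and ethanol 3 were higher (Mrpl19, Mrpl33 and Mrps27), against 18% and 11.6%, and 0 lower, against 21.2% and 13.2%.

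Members of known place in the large subunit, picked after their values had been seen, lay on both sides of the family's median range of 1.07-fold. Mrpl2, Mrpl16 and Mrpl27, counterparts of bacterial proteins near the catalytic centre, had ranges of 1.05-, 1.05- and 1.04-fold, and Mrpl3 one of 1.11-fold, highest with spironolactone. Mrpl10 and Mrpl12, which form the stalk where translation factors bind, and Mrpl11 at its base had 1.07-, 1.04- and 1.08-fold. Mrpl12, which is also known to bind the mitochondrial RNA polymerase, had signals of 7638, 7319, 7412 and 7603 in ethanol, 1 nM, 100 nM and spironolactone.

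At the exit of the tunnel Mrpl22, Mrpl23 and Mrpl24 had ranges of 1.08-, 1.11- and 1.06-fold, and Mrpl45, which helps to anchor the ribosome to the inner membrane, 1.07-fold. Mrpl44, which has a ribonuclease III fold, had 1.08-fold. Mrpl58, a peptidyl-tRNA hydrolase that rescues stalled ribosomes, had 1.12-fold, lowest with 1 nM aldosterone. None of these genes came near the 1.87-fold range of Mrpl33.

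Split by descent, 29 large subunit genes with a bacterial counterpart had a median range of 0.11 and the 18 without one a median of 0.13. On the small subunit the 18 with a counterpart had 0.09 and the 11 without one 0.10. Between 100 nM aldosterone and ethanol the 4 medians, in that order, were 0.01, 0.02, -0.02 and -0.01. Mrps18a and Mrps30 are named for the small subunit but sit in the large one in the solved mammalian structures, and they had ranges of 1.11- and 1.05-fold.

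**Figure D3:**
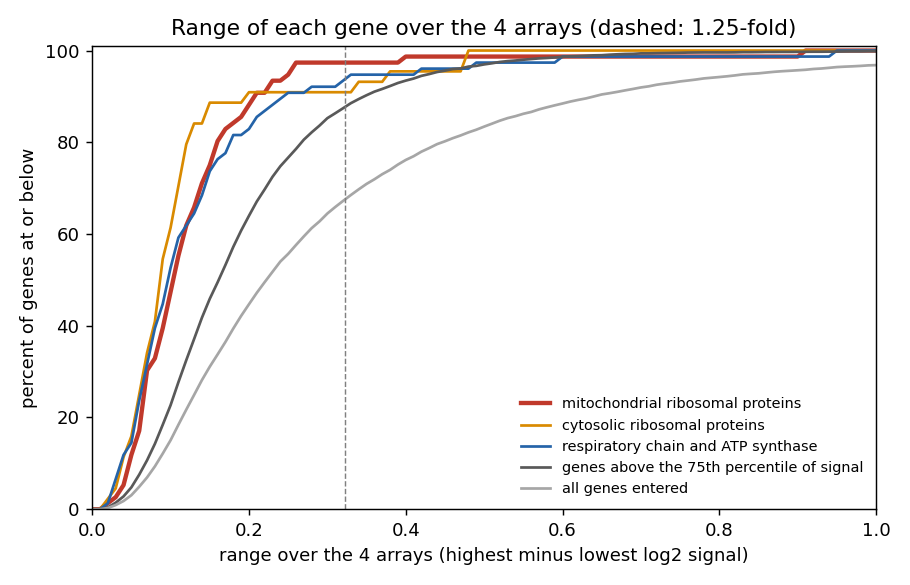
Share of genes (vertical axis, percent) whose range over the 4 arrays is at or below the value on the horizontal axis (log2), for mitochondrial ribosomal proteins in red, cytosolic ribosomal proteins in orange, respiratory chain and ATP synthase genes in blue, genes above the 75th percentile of signal in dark grey and all genes entered in light grey, with the threshold dashed. The 3 gene families run together with median ranges of 0.10, 0.09 and 0.10, left of the genes above the 75th percentile at 0.16.

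Neighbouring gene families had similar ranges. The 44 cytosolic ribosomal protein genes that entered, those with a probe set of 1 symbol, had a median range of 0.09, and 40 of them stayed under the threshold. The 76 respiratory chain and ATP synthase genes had a median range of 0.10, and 71 stayed under the threshold. Between 100 nM aldosterone and ethanol, the cytosolic ribosomal genes had 0 higher and 2 lower past the threshold, and the respiratory genes 2 higher and 1 lower. The shares were 7.07% higher and 6.48% lower among all genes entered, and 1.74% and 2.02% above the 75th percentile. No test of a difference between the families is possible with 1 array per treatment.

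Of the 76 genes 42 had more than 1 probe set and 36 had more than 1 at or above the filter, 65 further probe sets in all. The 33 of these above the 75th percentile of signal had a median absolute difference of 0.09 between 100 nM aldosterone and ethanol. Past the threshold 1 was higher and 1 lower, where 1.74% and 2.02% of genes above that percentile were. The 32 between the filter and that percentile had a median absolute difference of 0.24, with 6 higher and 6 lower. Among all genes entered, bright and dim together, the shares were 7.07% and 6.48%. Dim genes were not counted apart, so whether these probe sets differ from others as dim was not tested. Within the family the dimmer probe sets therefore spread more widely in both directions than the brighter ones. Of the genes with more than 1 probe set at or above the filter, none had all of these past the threshold the same way in any of the 5 comparisons.

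The following further probe sets above the 75th percentile went against a steady brightest one and were picked after their values had been seen. For Mrpl13 one with an x suffix, which marks possible cross-hybridisation, had 1394 with 100 nM aldosterone and 1419 with 1 nM, against 1065 in ethanol, while the brightest had 6245 and 6122, against 6414. For Mrpl28 another with an x suffix had 1289 with 100 nM against 1669 in ethanol, and the brightest had 4217 against 4104. For Mrps14 the second probe set had 846 with spironolactone against 608 with 100 nM, and the brightest had 7516 against 7734. Dim probe sets of Mrpl51 and of Mrps5 lay past the threshold in opposite directions between spironolactone and ethanol, at 0.35 and -0.66 for Mrpl51.

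**Figure D4:**
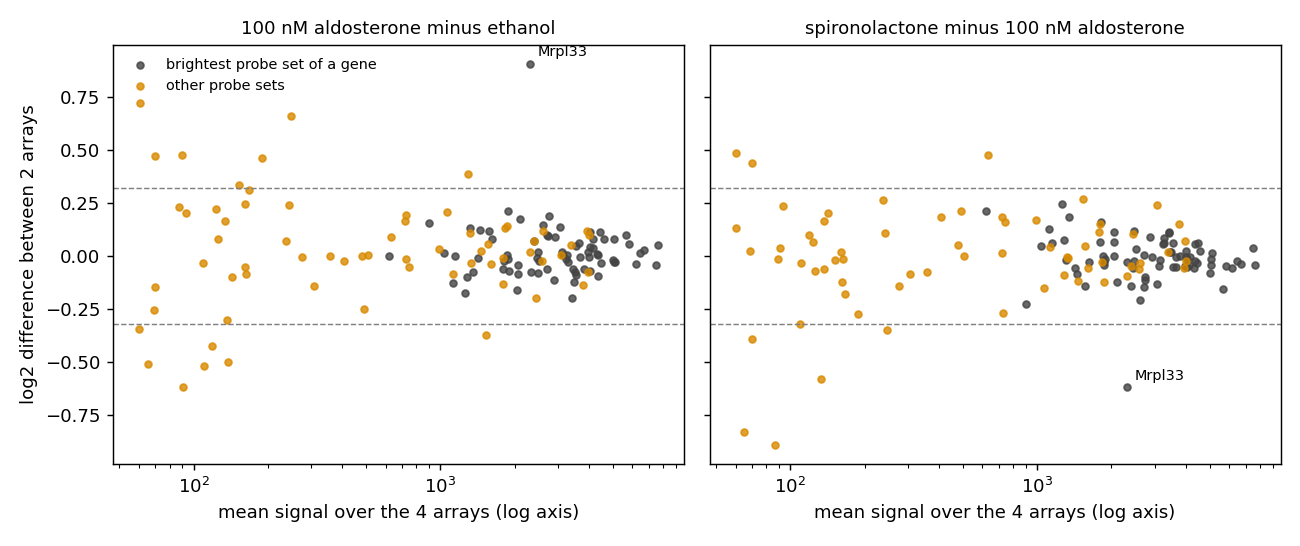
Log2 difference (vertical axis) against mean signal over the 4 arrays (horizontal log axis) for each probe set of the family at or above the filter, 100 nM aldosterone minus ethanol on the left and spironolactone minus 100 nM aldosterone on the right, with the brightest probe set of each gene in dark grey, the others in orange and the threshold dashed. Most bright probe sets lie inside the dashed lines, and Mrpl33 lies apart, at 0.91 and -0.62.

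Other genes of mitochondrial translation were counted from lists. Of the mitoribosome proteins under other symbols, Dap3, Ptcd3, Chchd1 and Gadd45gip1 were measured and 0 of 4 differed by the threshold between 100 nM aldosterone and ethanol. All 4 lay above the 75th percentile, where 1.74% were higher and 2.02% lower, against 7.07% and 6.48% of all genes entered. Dap3, a GTP-binding protein of the small subunit, had 4729, 4724, 4699 and 4763 in ethanol, 1 nM, 100 nM and spironolactone. Ptcd3, a pentatricopeptide protein of the small subunit, was higher with spironolactone, at 1852 against 1467 with 100 nM aldosterone (0.34), and 1551 and 1602 with 1 nM and in ethanol.

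Of 20 assembly factors, all above the 75th percentile, 0 were higher and 0 lower past the threshold between 100 nM aldosterone and ethanol. The shares were 7.07% and 6.48% of all genes entered, and 1.74% and 2.02% of those above the 75th percentile. Between spironolactone and 100 nM 0 were higher and 0 lower, against 6.49% and 8.13% of all genes entered and 2.38% and 2.05% above the 75th percentile. A count of 0 of 20 lies near the shares above that percentile. With 1 nM against ethanol 0 of the 20 were higher and 2 lower. The shares were 7.9% and 7% of all genes entered, and 2.1% and 2.31% of those above the 75th percentile. The 2 lower were the pseudouridine synthase Rpusd4, with 423 against 634 (-0.58), and the GTPase Mtg2, with 410 against 548 (-0.42). Of 13 translation factors, 11 of them above the 75th percentile, 0 passed the threshold between 100 nM and ethanol, beside the shares given above for that comparison. The elongation factor gene Tufm had 1668, 1491, 1709 and 1583 in ethanol, 1 nM, 100 nM and spironolactone. Between the doses 1 of the 13 was higher, where 6.57% of all genes entered and 1.86% above the 75th percentile were. It was the ribosome recycling factor Gfm2, with 360 at 100 nM against 271 at 1 nM.

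Of 19 mitochondrial aminoacyl-tRNA synthetases and amidotransferase subunits, 1 was higher (Gatb, with 222 against 148) and 1 lower (Aars2, with 89.9 against 131) between 100 nM aldosterone and ethanol, both dim, where 7.07% and 6.48% of all genes entered were. Above the 75th percentile were 11 of the 19. Aars2 was listed at 22.4 with spironolactone, under the filter. For 1 nM against ethanol 3 of the 19 were higher and 3 lower, where 7.9% and 7% of all genes entered were, and between the doses 3 and 1, where 6.57% and 6.6% were. For spironolactone against 100 nM the counts were 1 and 1, where the shares were 6.49% and 8.13%, and against ethanol 2 and 2, where they were 6.19% and 7.42%. Of 10 genes of mitochondrial DNA maintenance and transcription, 9 of them above the 75th percentile, 0 passed the threshold in any of the 5 comparisons. The same held for 88.4% of genes above that percentile and 68.7% of all genes entered. Ssbp1, the mitochondrial single-stranded DNA binding protein, had the lowest difference between 100 nM and ethanol, with 6049 against 7140 (-0.24). Tfam, which packages mitochondrial DNA, had 3254, 3164, 2970 and 3240 in ethanol, 1 nM, 100 nM and spironolactone.

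Of 11 regulators of mitochondrial biogenesis, 2 were higher and 1 lower between 100 nM aldosterone and ethanol, where 7.07% and 6.48% of all genes entered were. Above the 75th percentile were 7 of the 11. Higher were Mycn, with 177 against 48.7, and the lysosomal and metabolic regulator Tfe3, with 478 against 381 (0.33). With 1 nM and with spironolactone Mycn had 155 and 165, so its ethanol array lay apart from all the others. Tfe3 had 470 and 423 in the same 2 arrays. Lower was the coactivator Ppargc1b, with 112 against 160 (-0.51), which had 152 with spironolactone. Mycn and Ppargc1b lay below the 75th percentile of signal, and the ethanol value of Mycn lies under the filter. The factors whose motifs are marked above did not pass the threshold in any of the 5 comparisons. Nrf1 had 434, 399, 404 and 422 in ethanol, 1 nM, 100 nM and spironolactone, Gabpa 2711, 2767, 2353 and 2885, and Yy1 5053, 5495, 5150 and 5755.

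**Figure D5:**
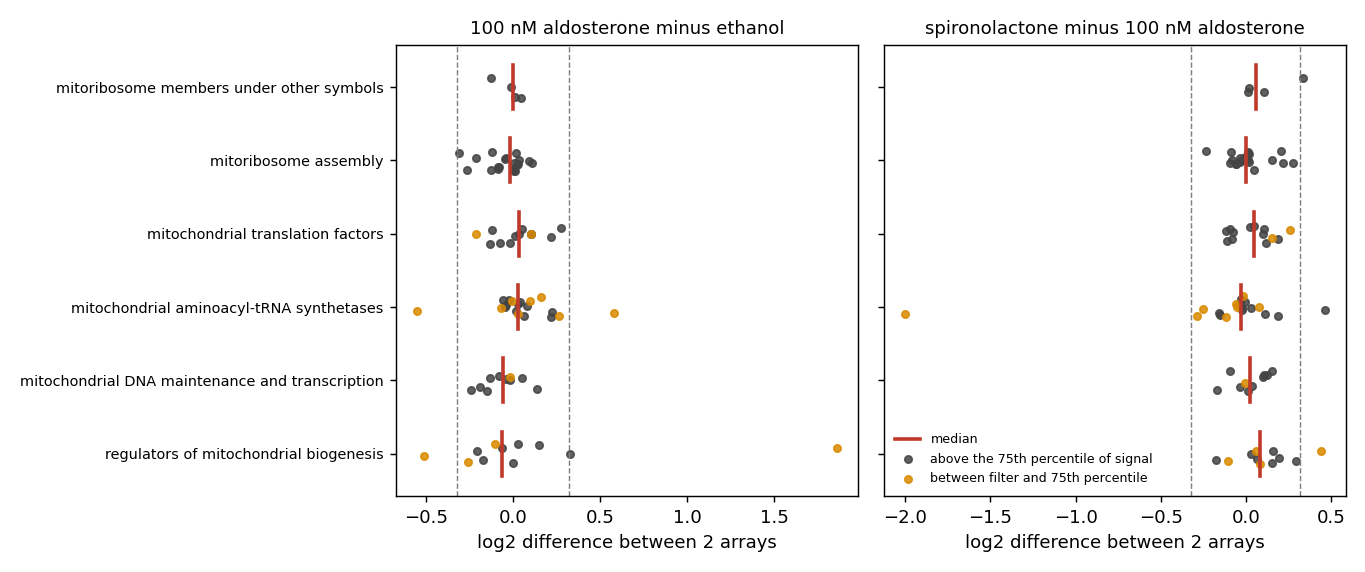
Log2 difference (horizontal axis) of each gene of 6 lists around mitochondrial translation (rows), 100 nM aldosterone minus ethanol on the left and spironolactone minus 100 nM aldosterone on the right, with genes above the 75th percentile of signal in dark grey, dimmer genes in orange, medians in red and the threshold dashed. On the left the points past the threshold are Gatb, Aars2, Mycn, Tfe3 and Ppargc1b, and all but Tfe3 are dim.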

How the data were processed

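The 4 arrays were each hybridised with cRNA from 250 ng of total RNA. The authors deposited linear intensities for each probe set, made with MAS5 per the submitters' processing notes. Its version and scaling target, any detection calls and the genome build are not stated in the sources used here. The trimmed means, without the top and bottom 2% of probe sets, were equal, so no further scaling was applied. The table held 45101 probe sets, 64 of them array controls, and 0 columns of other samples.

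Gene symbols came from the platform annotation. Only probe sets with 1 symbol were used, so Mrpl30 and Mrpl53, which share their probe sets with other genes, are not among the 76 genes, which are the other members of the 78 that RefSeq names by this pattern. A gene entered when the mean log2 signal of its brightest probe set was at or above the median over probe sets. Differences are of log2 signal with no pseudocount, and a gene counts as higher or lower past the threshold, with 1.5-fold as a second threshold. Without replicates no test was run. The procedure was tested on simulated data (Python 3.11.15, numpy 2.4.6, pandas 2.3.3).

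Named genes were the 4 highest and lowest members past the threshold in each comparison, members whose probe sets agree or oppose each other past it, the 4 with the narrowest range, those with the largest gaps of aldosterone alone against the other 2 arrays, and the extremes of each list. Genes described by role or just inside the threshold were chosen after their values were seen. The members, lists and comparisons were chosen with earlier results of these data known. Alternatives covered scaling, the filter, the choice of probe set, a pseudocount of 50 and the threshold.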

Additional observations from a re-analysis of the deposited data

How the results depend on the processing

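No paired analysis was possible because each treatment has 1 array. Over all alternatives the subunit medians lay between -0.05 and 0.04 and none moved by 0.1 or more. The Mrpl33 difference for 100 nM aldosterone against ethanol lay between 0.89 and 0.91, and that for spironolactone against 100 nM between -0.62 and -0.61. With 1 Mrpl33 probe set at or above the filter, the filter, the threshold and the choice of probe set could not move these values. Only scaling and the pseudocount could, and neither bears on the single probe set or the single array per treatment. For 1 nM against ethanol, the count of genes lower past the threshold, Mrpl37 alone, was 0 after centring, with log2(signal + 50) and at 1.5-fold. It was 4 with the median over probe sets (Mrpl37, Mrps10, Mrps11 and Mrps21). This setting takes in dimmer probe sets, and the shares of all genes under it were not counted. That setting also gave 2 genes higher with 100 nM than 1 nM, 1 higher with spironolactone than 100 nM (Mrps14), and 3 with 1 array apart from the other 3 (1 as reported, Mrpl33). At 1.5-fold, 0 were higher with 1 nM than ethanol, 0 with 100 nM than 1 nM, and 0 had 1 array apart. The remaining alternatives, among them the large subunit with Mrps18a and Mrps30, were added after seeing the data. With probe sets free of x and s suffixes, 0 were lower with 1 nM than ethanol. The only probe set of Mrpl37 has an s suffix, so this setting left the gene out and gives no check of it. Without Mrpl33, 0 genes were higher in any comparison, 0 were lower with spironolactone than 100 nM, and 0 had 1 array apart. No other gene was in these counts, so this outcome was fixed in advance. At 1.1-fold the higher and lower counts were 6 and 3 for 100 nM against ethanol, 4 and 7 for 1 nM against ethanol, 8 and 0 between the doses, 4 and 7 for spironolactone against 100 nM, and 3 and 0 for spironolactone against ethanol. The shares of all genes are given above. At 1.1-fold 2 genes were parted by aldosterone alone and 5 by 1 array. The shares of all genes parted at 1.1-fold were not counted, so these parting counts cannot be weighed against them. The cause of these moves was not tested. The number of arrays, and for the dim probe sets a signal near the filter, limit what can be seen.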
